A study of Mus musculus with 79 samples.

Results

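The 9 genes described here encode enzymes and partners that write, maintain or remove DNA methylation. They are Dnmt1, Dnmt3a, Dnmt3b, Dnmt3l, Tet1, Tet2, Tet3, Uhrf1 and Tdg, and they were taken by name from the 25965 genes of the RNA-seq table. All 9 were found there. Their histone marks at transcription starts and along the gene were set beside their expression in the hypothalamus of mice aged 14 weeks. The mice were C57BL/6Babr animals of genotype +/+, with 2 normal alleles of Dnmt3a, or Δ/D329A. The Δ allele was inherited from the mother and lacks exon 18, which Zp3-Cre removes in oocytes between flanking loxP sites. The D329A allele was inherited from the father and carries a point mutation in exon 8 that changes the PWWP domain, so that the only functional DNMT3A of Δ/D329A mice is the mutant protein. RNA-seq was made from 5 +/+ and 4 Δ/D329A animals, and ChIP-seq of H3K4me3, H3K27me3, H3K36me3 and input from 3 animals of each genotype. A supplementary legend of the study gives the RNA-seq animals as female, and a main legend gives expression and ChIP-seq together as male. By the reads of Xist and the Y chromosome below, the RNA-seq animals were taken as female. Expression and marks thus come from different mice of different sex. In the RNA table Xist had 2694 to 7044 reads per library, and 4 genes of the Y chromosome had 1 read over all 9 libraries. Each library comes from 1 animal and from whole hypothalamic tissue, so that fewer cells of a type and less RNA per cell cannot be told apart. The genotypes differ in both Dnmt3a alleles, and an effect of 1 allele cannot be told apart from an effect of the other.

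DNA methylation is set on unmethylated DNA by DNMT3A and DNMT3B, with DNMT3L as an inactive cofactor that is known mainly from germ cells. After replication, UHRF1 binds hemi-methylated CpG sites and brings in DNMT1, which copies the methylation to the new strand. TET1, TET2 and TET3 oxidise methylated cytosine, and TDG cuts out the most oxidised forms so that repair can put back an unmodified base. H3K4me3 is found at active and poised starts, H3K27me3 is set by Polycomb repressive complex 2 at silent developmental genes, and H3K36me3 builds up along transcribed genes and is bound by PWWP domains. A start that carries H3K4me3 and H3K27me3 together is called bivalent.

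The starts of these genes differ in CG content and in chromatin. The sequences of 4 of them are printed because they carry the contrasts described here: the upstream start of Dnmt1, which is unmarked, 1 of the 2 starts of its marked downstream window, and the starts of Tet1 and Uhrf1 where H3K4me3 and H3K27me3 meet. Each runs 5′ to 3′ on the strand of the gene from 250 bases before to 50 bases after the transcription start (RefSeq, GRCm38.p6), with CG dinucleotides in capitals. All 9 genes matched the RefSeq promoter table, with 16 promoters. Over its 32851 promoters of 300 bases, the median number of CG was 7, with quartiles at 3 and 20.
Dnmt1 upstream start, chr9:20959839-20960138, minus strand: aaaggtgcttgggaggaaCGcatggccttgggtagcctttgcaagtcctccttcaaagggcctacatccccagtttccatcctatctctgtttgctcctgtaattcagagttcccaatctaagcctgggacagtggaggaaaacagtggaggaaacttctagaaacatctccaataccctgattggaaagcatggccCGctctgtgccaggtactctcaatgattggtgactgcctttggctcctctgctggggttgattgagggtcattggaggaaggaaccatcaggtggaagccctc
Dnmt1 downstream start, chr9:20952574-20952873, minus strand: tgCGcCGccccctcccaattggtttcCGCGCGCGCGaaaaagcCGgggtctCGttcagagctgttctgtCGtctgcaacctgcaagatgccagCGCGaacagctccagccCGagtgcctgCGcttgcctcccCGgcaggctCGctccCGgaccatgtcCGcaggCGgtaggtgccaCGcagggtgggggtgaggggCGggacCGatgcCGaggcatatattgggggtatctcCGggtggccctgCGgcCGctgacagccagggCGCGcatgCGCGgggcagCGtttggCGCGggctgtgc
Tet1, chr10:62887275-62887574, minus strand: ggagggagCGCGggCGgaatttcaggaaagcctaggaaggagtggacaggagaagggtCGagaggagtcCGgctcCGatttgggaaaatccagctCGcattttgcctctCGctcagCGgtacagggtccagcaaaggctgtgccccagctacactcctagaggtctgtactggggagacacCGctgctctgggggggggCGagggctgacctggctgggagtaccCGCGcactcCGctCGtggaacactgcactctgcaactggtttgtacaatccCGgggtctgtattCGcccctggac
Uhrf1 downstream start, chr17:56304063-56304362, plus strand: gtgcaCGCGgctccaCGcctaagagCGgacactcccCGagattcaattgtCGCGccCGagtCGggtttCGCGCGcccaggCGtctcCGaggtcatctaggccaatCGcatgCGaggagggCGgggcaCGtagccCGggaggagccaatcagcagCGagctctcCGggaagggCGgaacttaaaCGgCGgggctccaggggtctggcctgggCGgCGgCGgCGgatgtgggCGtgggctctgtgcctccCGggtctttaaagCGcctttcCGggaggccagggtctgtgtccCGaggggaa
The upstream start of Dnmt1 held 2 CG, the downstream start shown held 33, and the other start of the same downstream window held 12. The start of Tet1 held 17 CG, and the 2 starts of Uhrf1 held 12 and 33. Among the other members, Tet2 stood highest with 57 CG, above 99.8% of all promoters, and the first starts of Dnmt3a followed with 46 and 47, while that of its short isoform held 18. Dnmt3b held 30, Tdg 26 and Tet3 22, while the 3 starts of Dnmt3l held 3, 4 and 6.

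The genes lie apart in the genome (GRCm38), with Tet1, Tdg and Dnmt3l on chromosome 10 but far from each other. The gene rows span chr9:20907206-20959888 for Dnmt1, chr17:56303321-56323486 for Uhrf1, chr12:3806007-3914443 for Dnmt3a, chr2:153649450-153687730 for Dnmt3b and chr10:78041947-78063622 for Dnmt3l. They span chr10:62804570-62899118 for Tet1, chr3:133463679-133544390 for Tet2, chr6:83362373-83441678 for Tet3 and chr10:82629828-82650799 for Tdg. Expression of the 9 genes fell into 2 levels. The values are log2 RPKM, which is corrected for gene length, and ± is the SD over 5 +/+ animals. Dnmt1 was the highest member at 2.81 ± 0.33, above 85.9% of all genes. Tet2 followed at 2.37 ± 0.12, then Dnmt3a at 1.91 ± 0.16, Tet3 at 1.47 ± 0.15, Tdg at 1.04 ± 0.14 and Tet1 at 0.69 ± 0.11. In this order the +/+ libraries of Dnmt1 and Tet2 overlapped, as did those of Tdg and Tet1 by a small margin, and the other neighbours were apart in every library. Uhrf1 stood far below at −3.24 ± 0.65, with 4 to 12 reads per +/+ library. Dnmt3b had 2 to 12 reads per +/+ library, and Dnmt3l had 0 to 4 with 5 reads summed over all 5. UHRF1 and DNMT3B are known from dividing and embryonic cells, and the markers of proliferating cells summed to 0.565–1.01 RPKM in +/+ and 0.624–1.15 in Δ/D329A, with Cdk1 and Ccnb1 at 0 reads in at least 1 library.

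No member differed between genotypes at the threshold for expression, a Benjamini-Hochberg adjusted p under 0.01 in limma over 17839 genes. Of the 9 genes, 7 passed the filter of 0.1 RPKM in at least 4 libraries and 0 of these were called, against a background of 0.107% of all genes tested. Among the members, 1 had an unadjusted p under 0.05, as had 1360 of all 17839 genes, and edgeR and DESeq2 called 0 as well. Dnmt3b and Dnmt3l were too low to be tested. The median log2 difference of the 7 was −0.26, against 0.06 over all genes tested, and 6 of the 7 were lower in Δ/D329A, of which Tet3 and Uhrf1 changed sign under other settings.

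Tet1 was the member whose libraries separated by genotype. Its 5 +/+ libraries had 0.84, 0.74, 0.59, 0.67 and 0.60 log2 RPKM, and the 4 Δ/D329A libraries had 0.34, 0.13, 0.41 and 0.48. Every Δ/D329A library lay below every +/+ library, a pattern that 1.23% of all genes tested showed in this direction. The log2 difference was −0.35 (standard error 0.15), with a limma adjusted p of 0.355. An exact two-sided permutation test of the difference in means gave an unadjusted p = 0.00794, which no ordering of 5 and 4 animals can go below.

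Dnmt3a, the gene that carries both alleles, had 2.11, 1.85, 1.85, 1.71 and 2.04 log2 RPKM in +/+ and 1.66, 1.51, 1.65 and 1.72 in Δ/D329A. The groups overlapped only in that +/+ replicate 4 lay just under the highest Δ/D329A library. The difference was −0.28 (standard error 0.13, limma adjusted p = 0.355), and the exact permutation test gave an unadjusted p of 0.0238. Reads were merged over all exons, so that the table cannot show exon 18 or the D329A base. Exon 18 spans chr12:3902381-3902471, and in the input ChIP libraries the tiles over it had 0.704, 1.14 and 0.404 times the mean of the gene body in Δ/D329A and 0.962, 0.867 and 0.755 times in +/+. These ranges overlap, and the loss of 1 copy of a 91 bp exon was not detectable in tiles of 2000 bp. The reads came to 16 to 50 per library, summed over 2 overlapping tiles, so that reads in their shared part count in both. By their pattern over the 9 libraries after median centring, Bcl11a (Pearson r = 0.976), Gtf2a2 (0.967) and 2410089E03Rik (0.959) were most like Dnmt3a, as a description over libraries that include both genotypes.

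In Δ/D329A, Dnmt1 stood at 2.94 ± 0.14 log2 RPKM, Tet2 at 2.27 ± 0.14, Tet3 at 1.47 ± 0.16, Tdg at 0.78 ± 0.35 and Uhrf1 at −3.50 ± 1.59 (SD, n = 4). All 5 lay within 2 standard errors of +/+. The log2 differences were 0.13 for Dnmt1 (standard error 0.18), −0.10 for Tet2 (0.13), −0.00 for Tet3 (0.14), −0.26 for Tdg (0.18) and −0.26 for Uhrf1 (0.64). In the plot of expression by library, both genotypes overlap in all members but Tet1.

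**Figure D1:**
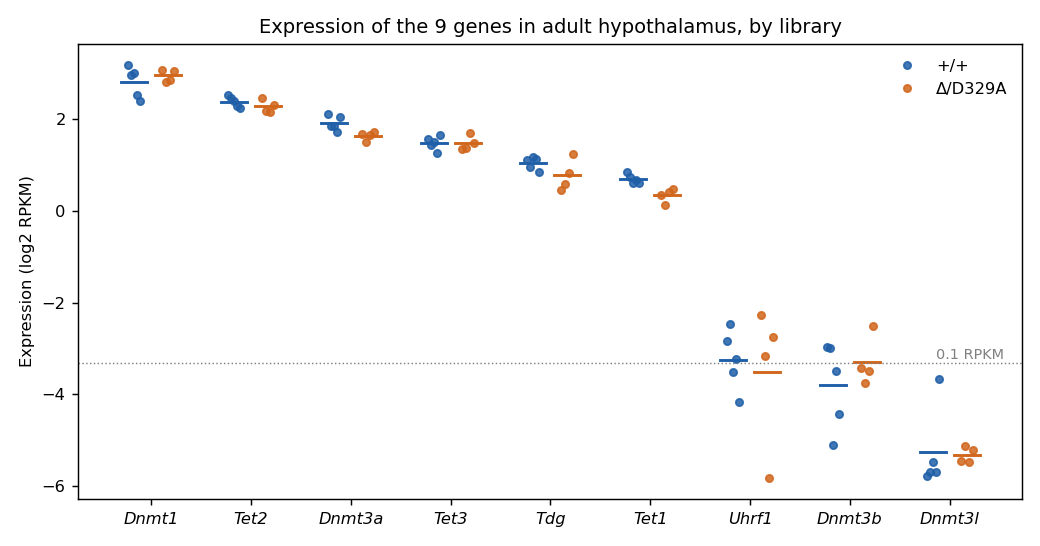
Expression of the 9 genes in log2 RPKM in each of 9 libraries, with +/+ and Δ/D329A side by side, points as libraries, short bars as group means and the dotted line at 0.1 RPKM. Tet1 is the only gene whose 4 Δ/D329A libraries, from 0.13 to 0.48, all lie below the 5 +/+ libraries, from 0.59 to 0.84.

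The ChIP values are reads in tiles of 2000 bp placed every 1000 bp, corrected for the library's uniquely mapped reads (RPM). A start window is the mean of the tiles centred from 1500 bp before to 500 bp after a transcription start. A gene row of the table begins at 1 annotated start, which for Dnmt1 and Tet1 lies 6909 and 11794 bp upstream of the nearest curated start with H3K4me3. After this was seen, curated RefSeq starts were added, and 18 starts of the members gave 15 windows. A window was called marked in a genotype when the mark stood at 2 times input or more in each of the 3 animals, after 0.1 RPM was added to both. By this rule 65% of 26032 RefSeq starts had H3K4me3 in +/+ and 63.7% in Δ/D329A, 8.79% and 9.9% had H3K27me3, 5.51% and 5.52% had both, and 31.7% and 31.9% had neither.

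Of the 15 windows of the members, 9 had H3K4me3 alone in +/+, 2 had both marks and 4 had neither. In Δ/D329A, 9 had H3K4me3 alone, 1 had both and 5 had neither. H3K36me3 passed 2 times input in none of the 15 windows in either genotype, against 0.357% and 0.238% of all starts.

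Among the maintenance genes, the upstream start of Dnmt1 (chr9, 20959888) carried neither mark. This is the side where an oocyte-specific first exon is known, and its H3K4me3 was 0.11 ± 0.16 RPM in +/+ and 0.23 ± 0.27 in Δ/D329A (SD, n = 3, here and below). The downstream window, over the starts at 20952979 and 20952623, had 16.9 ± 1.05 RPM in +/+ and 15.9 ± 2.72 in Δ/D329A. Uhrf1 was the member with both marks in +/+. Its windows at 56303337 and 56304313 on chromosome 17 share a tile, and in +/+ they had 3.07 ± 0.05 and 9.20 ± 0.47 RPM of H3K4me3 beside 2.99 ± 0.57 and 2.35 ± 0.21 RPM of H3K27me3. The H3K27me3 over input stood above that of 95.2% and 93.7% of all starts.

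Among the de novo methyltransferases, the first window of Dnmt3a (chr12, starts 3806980 and 3807160) had 26.8 ± 0.82 RPM of H3K4me3 in +/+ and 26.5 ± 3.93 in Δ/D329A, at 0.150 ± 0.027 and 0.069 ± 0.032 RPM of H3K27me3. The window of its short isoform, at 3891744, was marked at a far lower level of 2.39 ± 0.54 and 3.09 ± 0.22 RPM. Dnmt3b (chr2, start 153649449) had 8.89 ± 0.09 and 8.91 ± 0.99 RPM of H3K4me3 although it was close to the detection limit in RNA. A start of Dnmt3bos on the other strand lies close by at 153650286 (GENCODE M21), and its part in this H3K4me3 was not tested. Dnmt3l carried neither mark at its 3 windows, where H3K4me3 ranged from 0.140 to 0.412 RPM in the +/+ means and H3K27me3 from 0.864 to 1.11.

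Among the erasers, Tet2 (chr3, start 133544390) had the highest start of all members at 39.5 ± 2.65 RPM of H3K4me3 in +/+ and 38.5 ± 7.44 in Δ/D329A. Both windows of Tet3 (chr6, starts 83456392 and 83441678) followed at 27.3 ± 0.99 and 26.1 ± 2.11 RPM in +/+, then Tdg (chr10, start 82629838) at 20.6 ± 1.72. These 3 genes had less H3K27me3 than input in every animal. Tet1 had 13.1 ± 0.52 RPM of H3K4me3 in +/+ and 11.8 ± 2.71 in Δ/D329A, and it also carried H3K27me3. Its H3K27me3 was 2.90, 1.74 and 2.75 RPM in the 3 +/+ animals and 2.15, 2.41 and 2.26 RPM in the 3 Δ/D329A animals. The +/+ animals lay on both sides of the Δ/D329A animals. Relative to input the +/+ animals stood at 5.90, 1.88 and 3.34 times and the Δ/D329A animals at 2.72, 2.14 and 2.48 times, so that +/+ replicate 2 alone kept the +/+ window from being counted as bivalent.

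**Figure D2:**
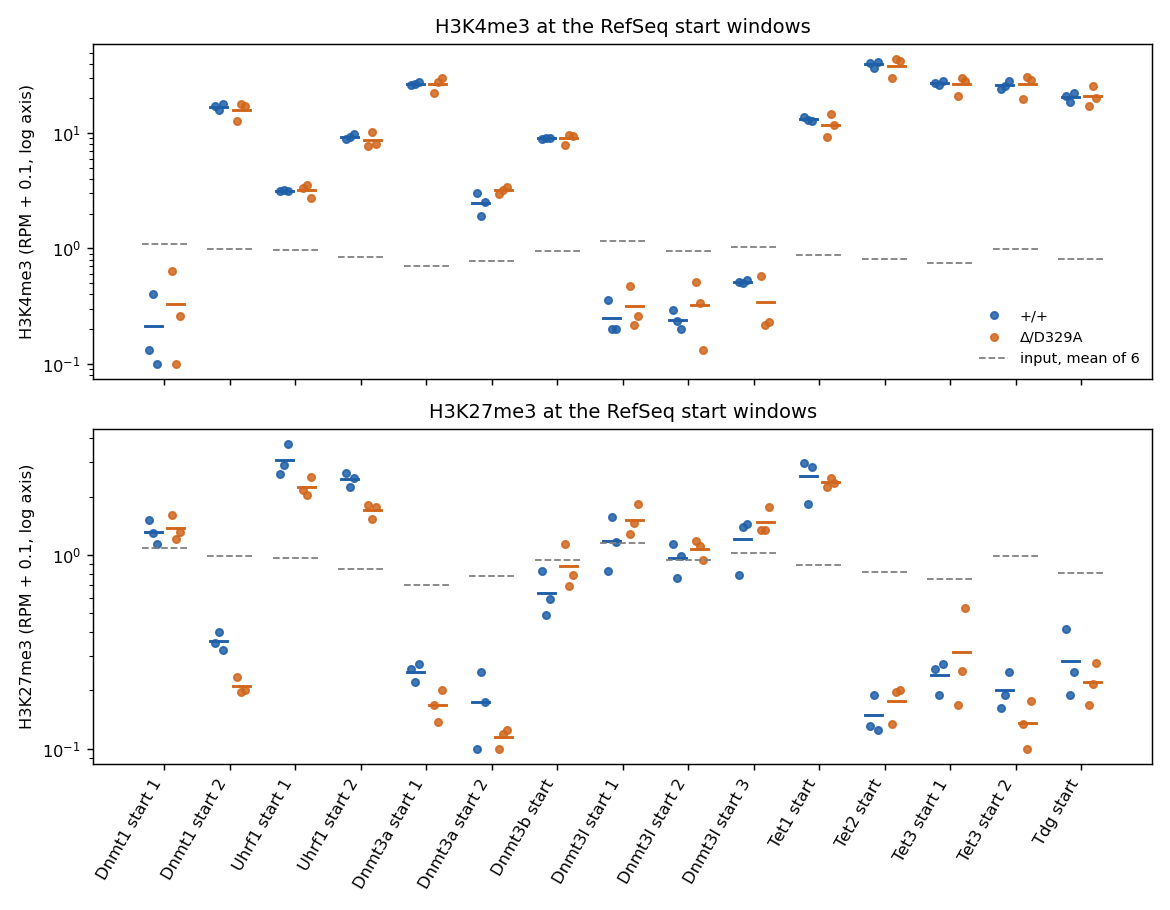
H3K4me3 and H3K27me3 at the 15 start windows of the 9 genes in each of 3 animals per genotype, on a log axis of RPM + 0.1, with dashes at the mean input of 6 animals. Tet2 stands highest in H3K4me3 at 39.5 RPM, and Uhrf1 and Tet1 stand highest in H3K27me3.

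No start window differed between genotypes at an adjusted p under 0.05 in any mark. In H3K4me3 limma called 0 of the 15 windows, with 0 at an unadjusted p under 0.05, and the animals overlapped in all 15. The background was 0% called over 26032 starts (895 with an unadjusted p under 0.05, 71 called by edgeR) and 6.08% of starts without overlap. Δ/D329A replicate 1 was the lowest of the 6 libraries in 9 of the 11 windows that had H3K4me3 in +/+. That library had a median of 5 reads per tile over the genome, against 1 to 3 in the other 5, and its part in these values was not tested.

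In H3K27me3 limma called 0 of the 15 windows, with 4 at an unadjusted p under 0.05 and a smallest adjusted p of 0.358. Over all starts 0% were called (2393 with an unadjusted p under 0.05, 276 called by edgeR), and the animals of both genotypes did not overlap in 14.1%. Among the members 4 of 15 windows did not overlap, and all 4 were lower in Δ/D329A. They are both windows of Uhrf1, the downstream window of Dnmt1 and the first window of Dnmt3a. The downstream window of Uhrf1 had 2.55, 2.13 and 2.38 RPM in +/+ and 1.71, 1.43 and 1.68 RPM in Δ/D329A. The lowest +/+ animal stood above the highest Δ/D329A animal, and the fitted log2 change was −0.52 with a standard error of 0.13 (limma adjusted p = 0.358). The upstream window had 2.52, 2.82 and 3.62 RPM in +/+ and 2.05, 1.95 and 2.44 RPM in Δ/D329A. It too was lower in every Δ/D329A animal, by −0.45 (standard error 0.16, limma adjusted p = 0.486).

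By the rule of 2 times input, Uhrf1 passed from both marks in +/+ to H3K4me3 alone at the downstream window. There H3K27me3 over input was 3.55, 3.08 and 2.98 times in +/+ and 1.74, 2.72 and 1.56 times in Δ/D329A. Input itself was 0.65, 0.63 and 0.73 RPM in +/+ and 0.94, 0.46 and 1.04 in Δ/D329A, so that the call rests on both. At the upstream window it passed to neither mark, by a narrow margin, since Δ/D329A replicate 3 had 1.98 times input for H3K4me3 and 1.86 times for H3K27me3 and the other 2 animals stood above 2 for both. Mean H3K4me3 there was 3.07 RPM in +/+ and 3.09 in Δ/D329A, and input in Δ/D329A replicate 3 was 1.27 RPM. Over all starts the call of H3K27me3 differed between genotypes in 3.28%. Exact permutation tests of 3 animals against 3 cannot go below p = 0.1.

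The Dnmt1 and Dnmt3a windows without overlap lay far below input. The downstream window of Dnmt1 had 0.25, 0.30 and 0.22 RPM of H3K27me3 in +/+ and 0.134, 0.096 and 0.102 in Δ/D329A, which is 2 to 4 reads against 0 to 1 in a tile at its start. The first window of Dnmt3a had 0.157, 0.120 and 0.174 RPM in +/+ and 0.067, 0.038 and 0.102 in Δ/D329A. Both are lower in every Δ/D329A animal, at 0.503 times input or less in the former and 0.475 or less in the latter.

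The animals also differed in how strongly the H3K27me3 libraries covered mitochondrial DNA, with 18.1–36.8 RPM per tile in 3 animals (+/+ replicate 3, Δ/D329A replicates 2 and 3) and 4.07–10.3 in the other 3. Within the former the 4 windows differed by −0.70 at the downstream window of Dnmt1, −0.71 and −0.59 at the upstream and downstream windows of Uhrf1 and −0.71 at Dnmt3a, with 1 +/+ animal against 2, and within the latter, with 2 against 1, by −0.68, −0.36, −0.42 and −0.51, all on the log2 scale. The 4 windows were picked for their lack of overlap, which fixes the sign of these differences in any split of the animals. The part of mitochondrial coverage in them was not tested.

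In H3K36me3 limma called 0 of the 15 windows (2 at an unadjusted p under 0.05, smallest adjusted p 0.730), and the animals overlapped in all 15. Over all starts 0.0154% were called (4 of 26032, 0 by edgeR) and 11.9% did not overlap. By the gene starts of the table rows in place of RefSeq starts, limma called 0 of the 9 members in each mark, with 0, 1 and 1 at an unadjusted p under 0.05 for H3K4me3, H3K27me3 and H3K36me3. Of 25952 promoters, it called 0% in H3K4me3 (900 at an unadjusted p under 0.05, 78 called by edgeR), 0% in H3K27me3 (2308 and 258) and 0.0231% in H3K36me3.

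Along the genes, tiles were scanned from 10000 bp before the row start to 5000 bp past the gene end. The Tet3 start at 83456392, with 27.3 ± 0.99 RPM in +/+, lies at −14714 bp from the row start and was not scanned. In the tiles scanned, H3K4me3 formed 1 main domain at the start of Dnmt1, Dnmt3a, Dnmt3b, Uhrf1, Tet2, Tet3 and Tdg, counted as tiles at 2 times input in each of the 3 animals with a mean of 0.5 RPM or more. In +/+ the domain was 9 kb long at Dnmt3a and at Tet3, 6 kb at Tet2, 5 kb at Dnmt1 and 4 kb at Dnmt3b, Uhrf1 and Tdg. In Δ/D329A the lengths were the same but for 8 kb at Dnmt3a. Dnmt3a had a series of weaker domains further inside the gene, with a highest tile of 4.98 ± 1.06 RPM in +/+. Some tiles beside the members hold starts of other genes, so that their H3K4me3 cannot be given to a member. The start of 1190007I07Rik lies upstream of Tdg, that of Kdm4b past the end of Uhrf1, that of Aire inside Dnmt3l on the other strand, and that of B230319C09Rik in the highest tile of Tet3. That of Dnmt3bos lies in the highest tile of Dnmt3b, on the other strand.

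Tet1 had 3 H3K4me3 domains in +/+ and 2 in Δ/D329A. The domain found in +/+ alone, chr10:62855001-62859000, was weak, with a highest tile of 3.18 RPM, and the other 2 differed in H3K27me3. The tile with the highest H3K4me3 of the gene was not at its curated start but at chr10:62864001-62866000, centred 34118 bp inside the gene row. It covers exon 3 of the curated transcript and the start of a GENCODE M21 Tet1 transcript at 62865304, and also the start of the predicted RNA Gm51805 on the other strand. Shorter forms of TET1 from internal starts are known in somatic tissues. There H3K4me3 was 35.5, 33.8 and 38.6 RPM in +/+ and 25.3, 44.3 and 35.4 RPM in Δ/D329A, while H3K27me3 was 0.120 RPM or less in +/+ and 0.153 or less in Δ/D329A. The genotypes overlapped widely. The tile at the curated start, chr10:62886001-62888000, had 18.3 ± 0.38 RPM of H3K4me3 in +/+ and 15.6 ± 3.62 in Δ/D329A, with 3.06 ± 0.78 and 2.89 ± 0.35 RPM of H3K27me3. The curated start carried both marks and the internal domain carried H3K4me3 with next to no H3K27me3.

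The H3K27me3 domain of Tet1 was 6 kb long in +/+ and 5 kb in Δ/D329A and ran downstream from the curated start. In the tile centred 15118 bp inside the gene row it was 3.65, 4.08 and 4.07 RPM in +/+ and 2.89, 3.13 and 3.0 in Δ/D329A. In the tile at 16118 bp it was 2.27, 3.30 and 3.37 RPM in +/+ and 2.08, 2.18 and 1.73 in Δ/D329A. Over segment 1 of 5 equal segments of the gene it ranged from 1.72 to 1.86 RPM in +/+ and from 1.34 to 1.53 in Δ/D329A, without overlap. These tiles and segments were chosen after their values were seen and have no test. At Uhrf1 the H3K27me3 domain was 3 kb long in +/+ and did not pass the rule of 2 times input in each animal in Δ/D329A. The upstream start window over it still had 2.05, 1.95 and 2.44 RPM in Δ/D329A, at 2.03, 2.36 and 1.86 times input. Upstream of the Dnmt3b row a 3 kb domain of H3K27me3 passed the rule in Δ/D329A alone, in the tiles centred at −6450 and −5450 bp from the gene row start. Its highest tile had a mean of 2.96 RPM in Δ/D329A. By this rule 1 animal under 2 times input is enough to miss a domain, and this difference was not tested.

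**Figure D3:**
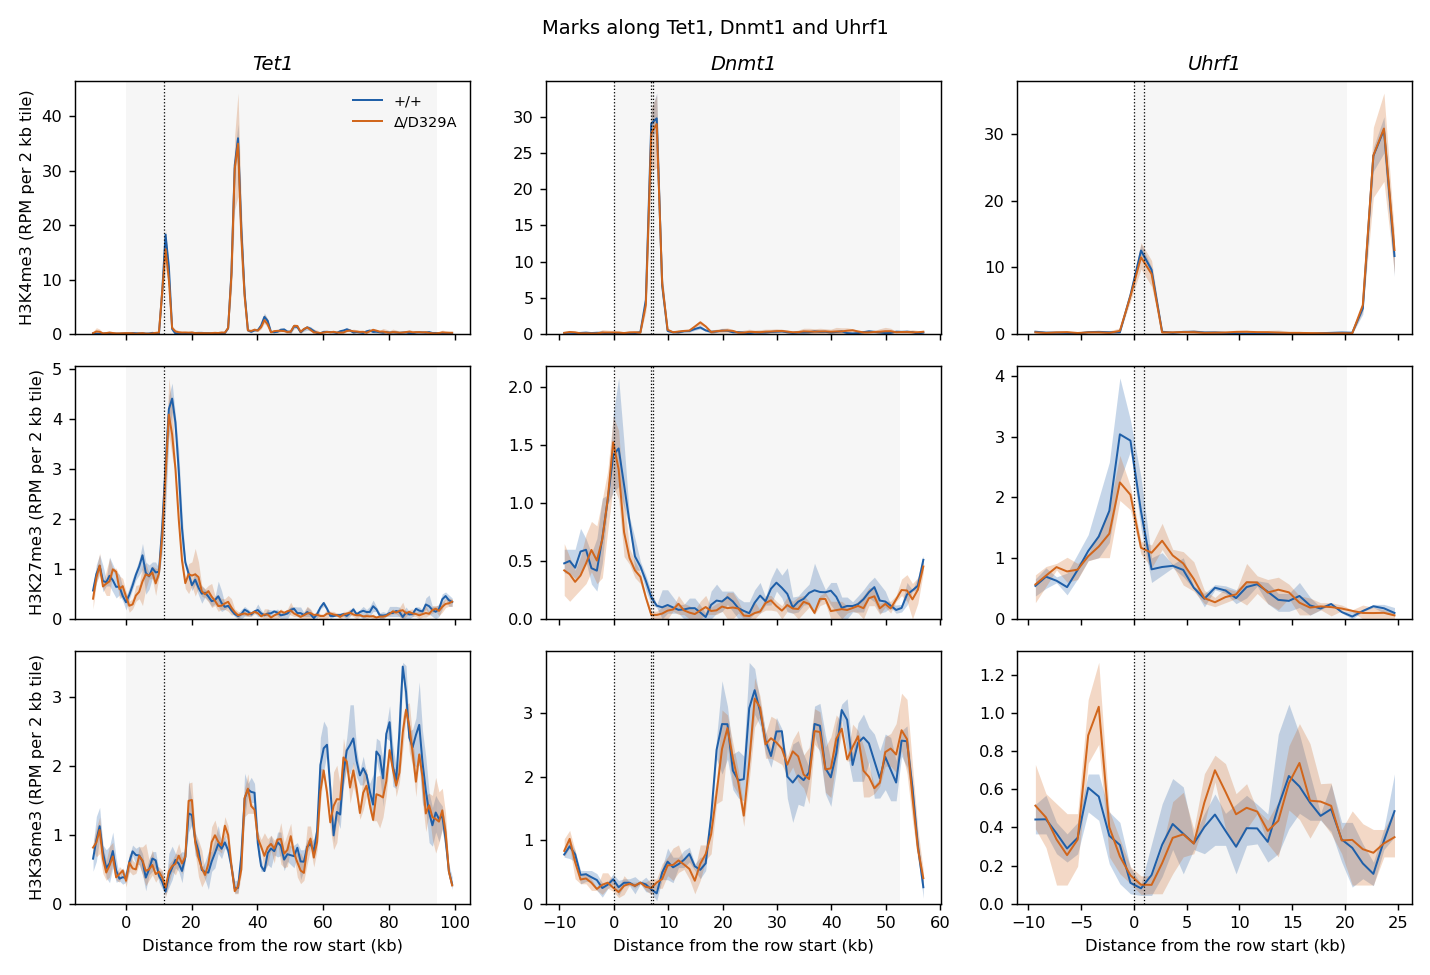
H3K4me3, H3K27me3 and H3K36me3 in RPM against distance from the gene row start in kb at Tet1, Dnmt1 and Uhrf1, with a line at the mean of 3 animals per genotype and a band from the lowest to the highest animal. Dotted lines are RefSeq starts. Tet1 shows an inner H3K4me3 domain without H3K27me3 at 34118 bp, and Dnmt1 a single domain at its downstream starts.

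Gene bodies, from 500 bp past the row start to the end of the gene, were ordered by H3K36me3 much as the genes were by expression. Tet2 had 1.77 ± 0.06 RPM of H3K36me3 in +/+, Dnmt1 1.76 ± 0.16, Tdg 1.73 ± 0.05, Dnmt3a 1.54 ± 0.13, Tet3 1.46 ± 0.09 and Tet1 1.23 ± 0.05. Dnmt3b had 0.754 ± 0.041, Uhrf1 0.397 ± 0.068 and Dnmt3l 0.307 ± 0.028, all 3 below input. By the rule of 2 times input in each animal, Tdg was the 1 member marked by H3K36me3 over its body in +/+ and 0 were marked in Δ/D329A, against 11.8% and 7.58% of all gene bodies. In Δ/D329A the Tdg body had 1.77 ± 0.14 RPM, at 2.07, 2.50 and 1.77 times input. Replicate 3 alone thus kept it from the call. Across the 9 genes, Spearman's rho between expression and H3K36me3 was 0.917 in +/+ and 0.817 in Δ/D329A, and 0.817 between expression and the highest H3K4me3 start window in +/+. With the highest H3K27me3 start window it was −0.433. These are descriptions over 9 genes that share their libraries, with expression from female and marks from male animals.

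H3K36me3 was higher in segment 5 than in segment 1 of each of the 9 genes in +/+, where each gene was cut from start to end into 5 equal segments. The means went from 0.338 to 2.33 RPM in Dnmt1, from 0.586 to 2.11 in Dnmt3a, from 0.544 to 2.18 in Tet1, from 1.09 to 3.05 in Tet2, from 0.996 to 2.09 in Tet3 and from 0.851 to 1.70 in Tdg, where segment 4 stood highest at 2.48. They went from 0.240 to 0.456 RPM in Uhrf1, from 0.454 to 0.873 in Dnmt3b and from 0.179 to 0.351 in Dnmt3l, with these segments all below input. Segment 4 of Dnmt3b stood above input, at 1.12 RPM in +/+ against a mean input of 0.849 RPM. Of the 45 segments, the animals of both genotypes did not overlap in 7, of which 4 were lower in Δ/D329A (segments 2 and 4 of Dnmt3a, 4 and 5 of Tet1) and 3 were higher (segment 2 of Uhrf1, 2 and 5 of Dnmt3b). In segment 5 of Tet1, the +/+ animals ranged from 2.1 to 2.26 RPM and the Δ/D329A animals from 1.80 to 1.92. In segment 5 of Dnmt3b they ranged from 0.763 to 0.957 and from 1.02 to 1.18. The segments have no test, and no share over the segments of all genes was computed. Among whole gene bodies of all genes, 22% did not overlap in this mark.

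Between genotypes limma called 0 of the 9 gene bodies in H3K36me3, with 0 at an unadjusted p under 0.05 and a smallest adjusted p of 0.382. Over 23657 gene bodies 0% were called (3814 at an unadjusted p under 0.05, 162 called by edgeR), and 22% did not overlap. In 2 of the 9 members the animals did not overlap, and both were lower in Δ/D329A. Dnmt3a had 1.47, 1.45 and 1.69 RPM in +/+ and 1.41, 1.38 and 1.41 in Δ/D329A, which is −0.13 in log2 (standard error 0.06, limma adjusted p = 0.391). Tet1 had 1.21, 1.29 and 1.19 RPM in +/+ and 1.15, 1.19 and 1.07 in Δ/D329A, which is −0.10 (standard error 0.06, limma adjusted p = 0.420). The share of 2 in 9 is near the 22% of all genes. For H3K4me3, 0 of the 9 gene bodies were called (0 at an unadjusted p under 0.05) and 0 lacked overlap, against 0% called (836 at an unadjusted p under 0.05, 0 called by edgeR) and 6.64% without overlap among all genes.

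**Figure D4:**
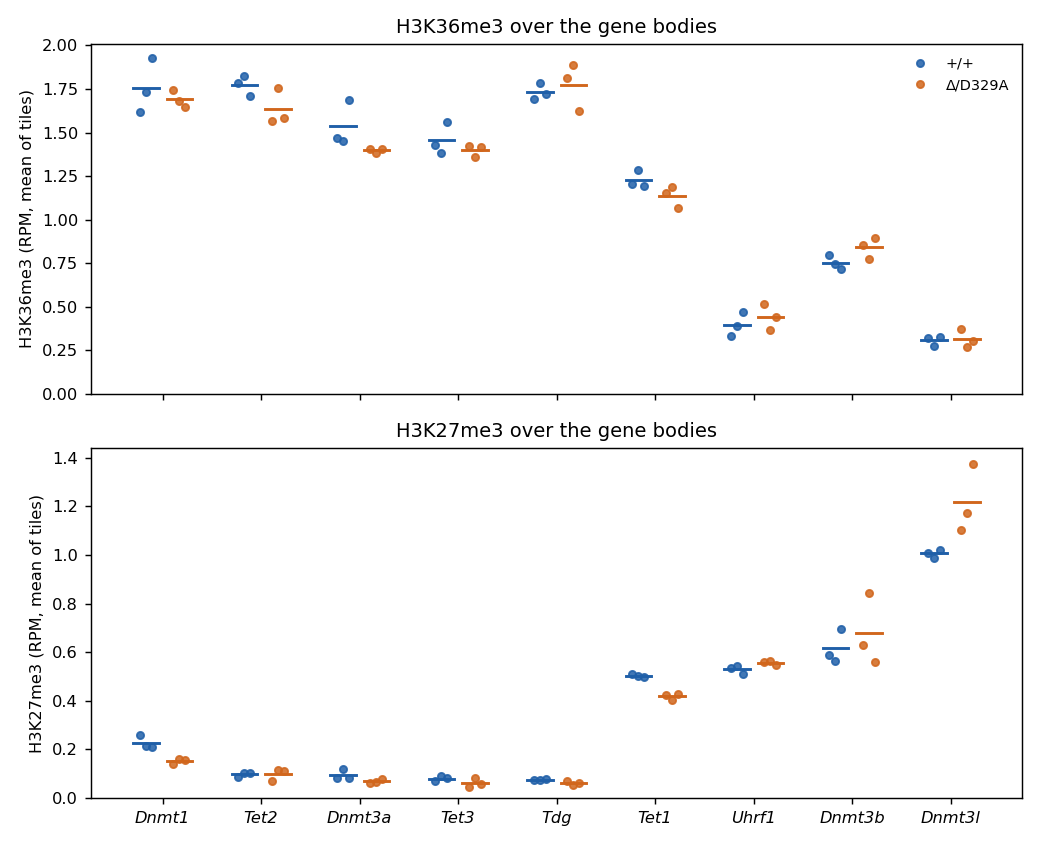
H3K36me3 and H3K27me3 over the gene bodies of the 9 genes in RPM, with points as animals and 3 animals per genotype. In H3K36me3 Tet2, Dnmt1 and Tdg stand highest, at 1.77, 1.76 and 1.73 RPM in +/+, and in H3K27me3 Dnmt3l stands highest, at 1.01 RPM in +/+.

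In H3K27me3 over gene bodies, 6 of the 9 members did not overlap between genotypes, against 19.6% of all genes, and limma called 0 (2 at an unadjusted p under 0.05, smallest adjusted p 0.354) against 0.00845% of all genes. The direction was mixed. Dnmt1, Dnmt3a, Tet1 and Tdg were lower in Δ/D329A, and Uhrf1 and Dnmt3l were higher, though Uhrf1 was lower as a ratio to input. Dnmt1 had 0.258, 0.214 and 0.208 RPM in +/+ and 0.140, 0.159 and 0.157 in Δ/D329A (log2 difference −0.37, standard error 0.12). Tet1 had 0.51, 0.50 and 0.50 RPM against 0.423, 0.401 and 0.429 (−0.22, 0.10). Both lay below input in every animal. Dnmt3l had 1.01, 0.986 and 1.02 RPM in +/+ and 1.1, 1.17 and 1.37 in Δ/D329A (0.25, 0.10), above input in every animal. Its segment 1 had 0.61 to 1.0 RPM in +/+ and 1.29 to 1.74 in Δ/D329A. Of the 45 segments of the members, 9 did not overlap in H3K27me3, with 8 lower in Δ/D329A and this 1 higher, and no test was made. No share over the segments of all genes was computed, beside the 19.6% of whole gene bodies. Of the 8, segment 1 of Tet1 stood above mean input, at 1.80 RPM in +/+, and the others lay below it. The limma adjusted p was 0.354 for Dnmt1, 0.401 for Tet1 and 0.374 for Dnmt3l. Dnmt3a had 0.095 ± 0.022 RPM against 0.068 ± 0.010 (log2 difference −0.21, standard error 0.11, limma adjusted p = 0.436), and Tdg 0.076 ± 0.004 against 0.062 ± 0.009 (−0.12, 0.07). Uhrf1 had 0.530 ± 0.017 RPM against 0.557 ± 0.008 (0.06, 0.09). Dnmt3a, Tdg and Uhrf1 too lay below input in every animal, so that of the 6 only Dnmt3l stood above it. The median log2 difference of the 9 was −0.12, against −0.07 over all genes.

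Of 80 other genes around the same chemistry, in 6 lists, 74 were tested for expression and 1 was called, against 0.107% of all genes tested. It was Wt1, a zinc finger factor that binds TET2, with 2 reads in all +/+ and 178 in all Δ/D329A libraries (log2 difference 5.72, limma adjusted p 8.1e-06). The study names Wt1 among the genes upregulated in these same RNA-seq data. Since the lists were chosen with earlier results known, this call says nothing about the list as a whole. The list medians ranged from −0.03 to 0.12 in log2, against 0.06 over all genes. In the lists, 0 of 15 tested genes of oxidised base removal and repair, 0 of 14 maintenance partners, 0 of 13 H3K36 and H3K27 methylation enzymes, 0 of 11 CpG readers and 0 of 12 methyl donor genes were called. At an unadjusted p under 0.05 stood 4 of the 74, against 1360 of 17839 genes. In promoters and gene bodies limma called 0 of the 80 in each of the 3 marks, with 1 and 1 at an unadjusted p under 0.05 for H3K4me3, 8 and 16 for H3K27me3 and 3 and 22 for H3K36me3. Over all 25952 promoters and 23657 gene bodies these numbers were 900 and 836 for H3K4me3, 2308 and 3071 for H3K27me3 and 1707 and 3814 for H3K36me3.

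Markers of the hypothalamus were present in every library. Hypothalamic neuropeptides summed to 422–891 RPKM in +/+ and 478–699 in Δ/D329A, neuronal markers to 199–311 and 230–301, astrocyte markers to 103–153 and 112–176, oligodendrocyte markers to 261–404 and 173–328 and ependymal and tanycyte markers to 82.0–176 and 69.6–140. Oligodendrocyte precursors stood at 23.8–54.8 and 23.5–32.8, microglia at 14.3–29.7 and 17.6–30.5 and endothelial cells at 10.9–26.2 and 16.1–21. Of neighbouring tissues, thalamus and habenula markers summed to 50.3–88.0 and 69.7–88.7 (5 of 6 in the table), anterior pituitary to 0.448–17.0 and 3.22–11.8, choroid plexus to 3.90–5.22 and 4.24–8.48 and cortex to 1.61–2.54 and 2.21–3.62. The summed levels of both genotypes overlapped in all 13 lists, and limma called 0 genes in any of them. The median log2 difference of a list ranged from −0.20 for oligodendrocytes to 0.81 for cortex (2 of 4 tested genes at an unadjusted p under 0.05), with 0.52 for thalamus and habenula (1 of 5), 0.34 for microglia (0 of 5), 0.30 for proliferating cells (0 of 3), 0.22 for astrocytes (1 of 5) and −0.04 for hypothalamic neuropeptides (4 of 14), against 0.06 over all genes. Their part in the results was not tested. The mitochondrial share of the reads on genes did not overlap, at 1.75–3.79% in +/+ and 0.949–1.18% in Δ/D329A, and its part in the expression values was not tested. The depth on genes was between 5618125 and 9977003 reads per +/+ library and between 3874213 and 6598977 per Δ/D329A library, and uniquely mapped reads from 12676361 to 15944966 for H3K4me3, 14874942 to 26178088 for H3K27me3, 19056381 to 22850001 for H3K36me3 and 14708935 to 30207875 for input.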

How the data were processed

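Processed values were used for 9 RNA-seq and 24 ChIP-seq libraries of adult hypothalamus, and the bisulfite libraries were not analysed here. The authors left out 1 further Δ/D329A RNA-seq library of low quality. Trim Galore 0.4.3, HISAT2 2.0.5 and Bowtie2 2.3.2 stand in the submitters' processing notes, with GRCm38 as the build. For RNA-seq, the authors counted exon reads per gene in SeqMonk, corrected them for length and deposited them as log2 RPKM, with 0.9 reads in place of 0. For ChIP-seq, the deposited signal of a 2000 bp tile, placed every 1000 bp, is its reads scaled to uniquely mapped reads (RPM), with no input subtracted. Both kinds of value gave whole reads (100% of values, within 0.02 reads for RNA and 0.01 for ChIP), which were used for edgeR and DESeq2. 

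Expression was fitted with limma 3.58.1 in R 4.3.3, with a variance trend, over non-mitochondrial genes with 0.1 RPKM or more in 4 or more libraries. Marks were fitted on log2(mean tile value + 0.1 RPM), two-sided, with the pseudocount lowering the differences of low regions. Thresholds were Benjamini-Hochberg adjusted p under 0.01 for expression and under 0.05 for marks. RefSeq starts are an addition made with the values in view. Alternatives used edgeR 4.0.16 and DESeq2 1.42.0, other scalings, filters, pseudocounts and blocks and leaving out each animal. The fits were tested on simulated data.

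The members, the 6 gene lists and the 13 marker lists were chosen with earlier results of these data known. The text names the 9 members, each list gene past a threshold and the 3 genes most like Dnmt3a over the libraries. The labels number the samples within a group, and a p-value covers the spread between these animals.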

Additional observations from a re-analysis of the deposited data

Results flagged for a closer look

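Of the 18 groups of log2 RPKM values checked (9 genes in 2 genotypes), 1 had a library that stood apart. Dnmt3l in +/+ replicate 5 was at −3.65 log2 RPKM, with a gap to the next library of 0.856 of the whole range, above the critical value of 0.71 for 5 samples. This is 4 reads, and the other 4 +/+ libraries had 0 or 1. Chance puts about 1 in 20 such groups above the critical value.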

How the results depend on the processing

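No member was called in expression or in any mark under any alternative run, over 1348 recomputed values of 106 results, and 134 of these values had the other sign without being called. Tet1 expression ranged from −0.40 to −0.21 in log2 with adjusted p from 0.0959 (DESeq2) to 0.807, Dnmt3a expression from −0.33 to −0.22 (0.156 to 0.865) and H3K27me3 at the downstream window of Uhrf1 from −0.71 to −0.44 (0.115 with edgeR to 0.677). Limits are the few reads of Uhrf1, Dnmt3b and Dnmt3l, H3K27me3 below input at most starts, and 3 animals per genotype in ChIP. The median log2 difference of all starts in H3K36me3 was 0.12, and 0 with TMM factors. That of expression was 0.06, and 0.19 without the filter.

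The counts over all genes depended on the settings, and the cause was not tested. For expression, 19 genes were called, and 34 with median centring, 32 with quantile normalization, 11 from 0.5 RPKM, 77 with edgeR, 251 with DESeq2 and 11 to 18 leaving out 1 animal over the same genes (12 without Δ/D329A replicate 1 and 11 without replicate 4). For H3K4me3, 0 were called, and with a mean of at least 0.3 RPM 272 promoters, 42 gene bodies and 267 RefSeq starts, with edgeR 78 promoters and 71 starts, with the ratio to input 1 gene body and with TMM 1 start. For H3K27me3, 0 promoters, 2 gene bodies and 0 starts were called, and with the filter 226, 12 and 264, with edgeR 258, 39 and 276, with TMM 8 promoters, with a pseudocount of 0.5 RPM 1 gene body, and 0 gene bodies with the ratio to input, with a block by mitochondrial coverage and without any 1 animal (0 to 0). For H3K36me3, 6 promoters, 0 gene bodies and 4 starts were called. The counts were 1 promoter and 0 starts with a pseudocount of 0.5 RPM, 0 and 0 with the ratio to input, 3 and 0 with edgeR, 2 starts with the filter and 162 gene bodies with edgeR. Leaving out 1 animal gave 5 to 19 promoters, 0 to 4 gene bodies and 3 to 10 starts (10, 1 and 9 without +/+ replicate 1, and 19, 4 and 10 without Δ/D329A replicate 1, 15, 3 and 8 without replicate 2, 10, 2 and 7 without replicate 3).

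Replicate numbers were not taken as pairs. The deviations of same-numbered samples correlated at −0.29 to 0.30 with both signs, which cannot show whether animals shared a litter or a batch. With the replicate number as a block, 16 genes were called in expression, 0 gene bodies in H3K27me3 and 0 promoters in H3K36me3, and no member was called.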
